A study of Mus musculus with 4 samples.

Results

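Probes for both arms of miR-192, for miR-194 and for miR-215 were described across cultured mouse intestinal organoids and freshly isolated intestinal epithelium. Their probes were chosen by name, with earlier results of these data known. They are 6 of the 1897 miRNA probes used, namely mmu-miR-192-5p and mmu-miR-192-3p, mmu-miR-194-5p, the other arm of the second miR-194 gene (mmu-miR-194-2-3p), and mmu-miR-215-5p and mmu-miR-215-3p. The species prefix is left out below. All 6 were detected on all 4 arrays, as were 1149 of the 1897. The groups were organoids on day 5 of culture, organoids on day 1, villus epithelial cells and crypt epithelial cells. The organoids were grown from small intestinal crypts, and the villus and crypt cells came from the small intestine of mice. The labels name no treatment or allele, and the sources used here do not give strain, age, number of animals or pooling. With 1 array per group and no replicate, no test was possible, and every difference below compares single arrays. Whether a difference exceeds the spread between samples is therefore unknown.

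These miRNAs are abundant in the epithelium of the intestine, where transcription factors of the HNF4 and CDX families, which set intestinal identity, have been linked to them. A miRNA is cut from a hairpin whose 2 arms pair. One arm, the guide, is loaded into the silencing complex and finds targets through its seed, and the other, the passenger, is mostly degraded. Work in human cells has also linked them to p53, the stress-response factor that stops the cell cycle.

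The sequences are shown because they give how alike the mature arms are and which arms come from which genomic cluster. All come from RefSeq (GRCm38.p6) and are on the plus strand. In the mature sequences, written 5′ to 3′, capitals mark the seed (bases 2 to 8).
miR-192-5p: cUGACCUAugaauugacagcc
miR-215-5p: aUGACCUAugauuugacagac
miR-194-5p: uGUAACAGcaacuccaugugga
miR-192-3p: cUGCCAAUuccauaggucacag
miR-215-3p: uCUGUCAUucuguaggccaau
miR-194-2-3p: cCAGUGGGgcugcuguuaucug

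miR-192-5p and miR-215-5p share the seed, and no other of the 1679 mature names in the table has it. They were identical at 18 of 21 positions. Counted from the 5′ end, with the base of miR-192-5p first, the differences were C1A, A12U and C20A. Probe sequences were not analysed here, so how far these 2 probes bind each other's target was not tested. The passenger arms of the same 2 hairpins matched at 10 of 21 positions. miR-194-5p has a seed of its own and is the same molecule from both of its genes.

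The 4 hairpins lie in 2 clusters, shown with the mature arms in capitals to place the source of each arm. Mir194-2 (chr19:6264643-6264728) and Mir192 (chr19:6264844-6264932) are 115 bases apart. Their nearest neighbour in RefSeq is Atg2a, which ends 2339 bases before the cluster.
Mir194-2: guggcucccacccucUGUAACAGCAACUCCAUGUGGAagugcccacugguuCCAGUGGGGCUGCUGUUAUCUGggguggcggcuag
Mir192: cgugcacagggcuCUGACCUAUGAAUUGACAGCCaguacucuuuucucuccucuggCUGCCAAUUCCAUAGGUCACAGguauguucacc
Mir194-1 (chr1:185313319-185313385) and Mir215 (chr1:185313581-185313692) are 195 bases apart and lie inside the bounds of Iars2, the mitochondrial isoleucyl-tRNA synthetase gene, whose exons were not analysed here.
Mir194-1: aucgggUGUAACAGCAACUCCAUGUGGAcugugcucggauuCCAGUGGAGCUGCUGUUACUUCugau
Mir215: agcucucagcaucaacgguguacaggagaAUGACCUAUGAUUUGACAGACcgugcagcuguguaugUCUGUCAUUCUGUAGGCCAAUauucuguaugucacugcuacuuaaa
The miR-192 arms and miR-194-2-3p therefore come from the chromosome 19 cluster and the miR-215 arms from the chromosome 1 cluster, while miR-194-5p comes from both. Whether each probe reads its own arm alone was not tested.

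The arrays differed in brightness. The Spike Control spots averaged 8578 above the blank spots on the day 5, 16422 on the day 1, 28361 on the villus and 8540 on the crypt array, a 3.32-fold range. Levels below are log2 values after quantile normalization, which makes the 4 distributions of miRNA levels equal, and a level is compared only with the same probe's level on another array. Detection means an intensity above the mean plus 2 SD of an array's blank spots, and a miRNA was called higher or lower from 2-fold. Each value was recomputed under 10 other settings of scaling, background and detection, 11 in all. These settings are not independent. The higher detection limit leaves every member's value as it is. For a difference between members, Spike Control and miR-200 scaling give the same value and the deposited values nearly so, and so do the median and 75th percentile scalings with each other. Agreement under all 11 therefore counts some of them more than once. Within an array, the SD of log2 intensity over the 8 spots of a Spike Control probe was 0.0516 to 0.126. From the highest of these, spot error alone gives an SD of 0.178 to a difference between 2 arrays, and it covers neither RNA samples nor dim probes. The names of the deposited tables carry 1 code for the villus, crypt and day 1 arrays and another for day 5, so day 5 and that code cannot be told apart.

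The guide arms were lower in organoids than in crypts at both times and, as reported, lowest on day 1, except with scaling to the miR-200 family, where miR-192-5p and miR-215-5p on day 1 were slightly above crypt (0.010 and 0.10 log2). miR-192-5p represses its targets through the seed it shares with miR-215-5p. Its spot intensity was 1732 on the day 5, 2477 on the day 1, 8929 on the villus and 2778 on the crypt array. The normalized log2 levels were 11.32 on day 5, 10.51 on day 1, 11.60 in villus and 12.98 in crypt. Crypt was highest and day 1 lowest, with day 5 and villus between them and 0.28 apart.

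miR-194-5p, the guide made by both clusters, had spot intensities of 3132 on the day 5, 4855 on the day 1, 27593 on the villus and 7313 on the crypt array. Its levels were 12.26 on day 5, 11.60 on day 1, 13.31 in villus and 13.93 in crypt, so both tissue arrays lay above both organoid arrays. For miR-215-5p the intensities were 1541 on the day 5, 3251 on the day 1, 15097 on the villus and 3443 on the crypt array. The levels were 10.96 on day 5, 10.78 on day 1, 12.58 in villus and 13.31 in crypt. Again the tissues were above the organoids, and the 2 organoid arrays differed by less than the 0.178 of spot error. The deposited values of the authors, on a linear scale with the same median on each array, gave miR-215-5p 2415.8 on day 5, 2374.2 on day 1, 6791.8 in villus and 9881.6 in crypt. They gave miR-194-5p 5024.3 on day 5, 3574.5 on day 1, 12451.1 in villus and 21211.1 in crypt, and miR-192-5p 2728.7, 1794.7, 3998.2 and 7936.4 in the same order. For each guide the order of the 4 arrays was the same as in the normalized levels.

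The passenger probes lay close to the detection limit. miR-192-3p had intensities of 102.8 on day 5, 167.3 on day 1, 243.0 in villus and 130.1 in crypt, which is 1.46 to 2.25 times the detection limit of each array. Its levels were 6.85 on day 5, 6.84 on day 1 and 6.89 in villus, against 8.08 in crypt, so crypt stood alone above 3 nearly equal arrays. miR-194-2-3p, at 1.28 to 1.75 times the limit, had levels of 6.64 on day 5, 6.54 on day 1, 6.57 in villus and 7.07 in crypt. As normalized here, crypt stood above the other 3 arrays with a smaller gap than for miR-192-3p, but with Spike Control scaling miR-194-2-3p was higher than in crypt by 0.19 on day 5, 0.40 on day 1 and 0.32 in villus, and with the miR-200 family by 0.80, 1.53 and 0.62.

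miR-215-3p lay at 1.71 to 5.63 times the limit. Its levels were 7.15 on day 5, 7.65 on day 1, 7.95 in villus and 8.72 in crypt. As normalized here, it was the only member with its lowest level on day 5, not day 1. With scaling to the median every member was lower on day 5 than on day 1, and in the deposited values miR-192-3p was also lowest on day 5. The added offset of 50 in the background correction compresses differences of dim probes: on the deposited linear values, miR-192-3p was 57.0 on day 5, 66.4 on day 1, 64.5 in villus and 183.6 in crypt.

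**Figure D1:**
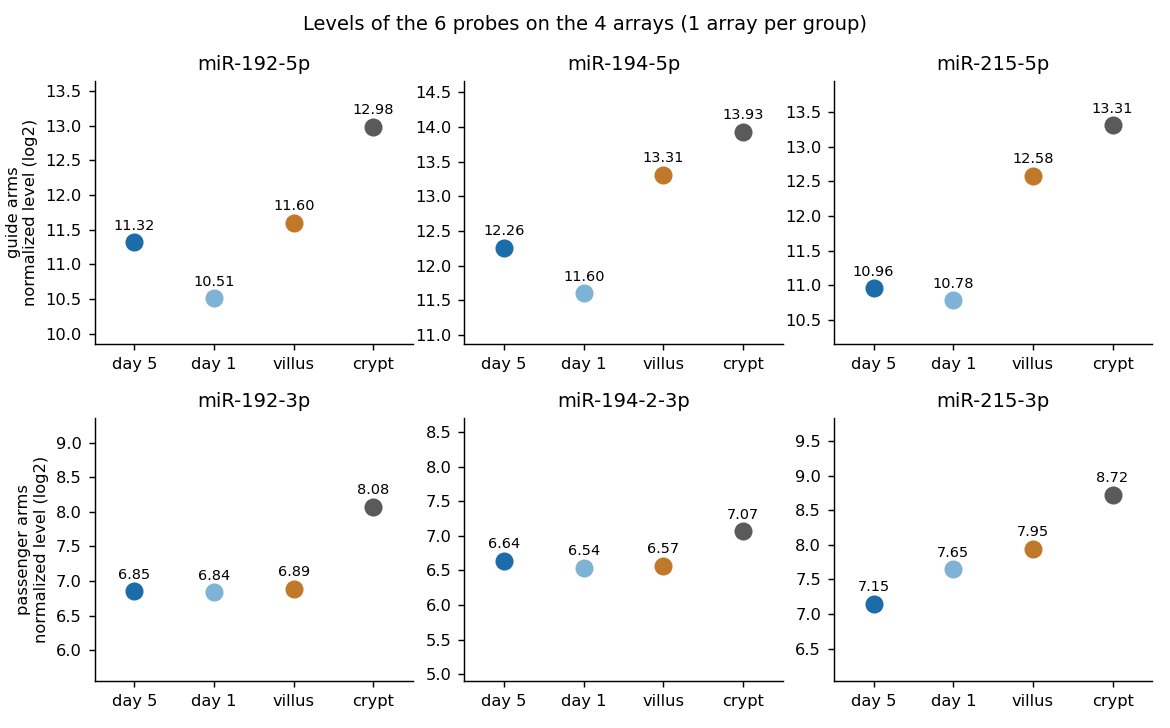
Normalized level (log2, vertical axis) of each of the 6 probes on the day 5, day 1, villus and crypt arrays, 1 point per array, with guide arms above and passenger arms below. Crypt has the highest level for all 6 probes as normalized here, though with scaling to the median the villus exceeds it for all 6. Each panel spans the same number of log2 units, so gaps can be compared but not heights.

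Day 5 organoids were set against crypts, the tissue they were grown from, to show how far cultures resemble it. All 3 guides and 2 passengers were lower on day 5. miR-215-5p was 5.13-fold lower on day 5 (log2 difference -2.36), miR-194-5p 3.20-fold lower (-1.68) and miR-192-5p 3.18-fold lower (-1.67). Of the passengers, miR-215-3p was 2.98-fold lower (-1.57) and miR-192-3p 2.33-fold lower (-1.22), while miR-194-2-3p had -0.42. In all, 5 of 6 members were at least 2-fold lower and none higher, where 5.12% of 1465 miRNAs detected on either array were lower and 4.37% higher. The member median was -1.62, beside 0.00 over the 1163 miRNAs detected on both arrays, whose SD was 0.61. Among these, miR-215-5p had the lowest difference, miR-194-5p ranked 11 from the lowest and miR-192-5p ranked 13.

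In day 1 organoids against crypts the guide differences were larger. miR-215-5p was 5.77-fold lower (-2.53), miR-192-5p 5.56-fold lower (-2.48) and miR-194-5p 5.03-fold lower (-2.33), ranking 3, 4 and 8 from the lowest of 1226. miR-192-3p was 2.35-fold lower (-1.23) and miR-215-3p 2.11-fold lower (-1.07), and miR-194-2-3p had -0.52. Again 5 of 6 members were at least 2-fold lower and none higher, where 6.19% of 1599 miRNAs were lower and 5.19% higher. The member median was -1.78 beside 0.01 over all miRNAs detected on both arrays, with an SD of 0.76. These 2 comparisons share the crypt array and are not independent.

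As reported, probes as bright as the guides did not share one direction. Of the 13 other probes whose mean level was at least that of the dimmest guide, 1 was at least 2-fold lower and 5 were higher on day 5 than in crypt. On day 1, 2 of the 13 were lower and 6 higher than in crypt. Quantile normalization gives each array the same set of levels, so where some of the brightest probes are lower, others must be higher. Opposite directions among bright probes are therefore partly built in, and these counts were not made under the other settings. The size of the guide differences depended on the scaling. Scaled to the Spike Controls, miR-194-5p had -1.25 on day 5 and -1.54 on day 1 against crypt, miR-215-5p -1.20 and -1.03, and miR-192-5p -0.71 and -1.12. On that scale the median of all miRNAs was 0.94 on day 5 and 1.46 on day 1 against crypt, so relative to it the guides were lower still. Scaled to 5 guide arms of the epithelial miR-200 family, miR-192-5p had -0.10 on day 5 and 0.010 on day 1, miR-215-5p -0.59 and 0.10, and miR-194-5p -0.64 and -0.41. On day 1, then, miR-192-5p and miR-215-5p differed from crypt by less than the 0.178 of spot error once scaled to the miR-200 family. Relative to the median of all miRNAs, each guide was below 0 on both organoid days against crypt under all 11 settings compared. That median is over miRNAs detected on both arrays, many of them dim. The median intensity of all miRNA probes was 75.5 on day 5, 100.8 on day 1 and 72.0 in crypt, beside detection limits of 70.5, 82.2 and 69.4.

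**Figure D2:**
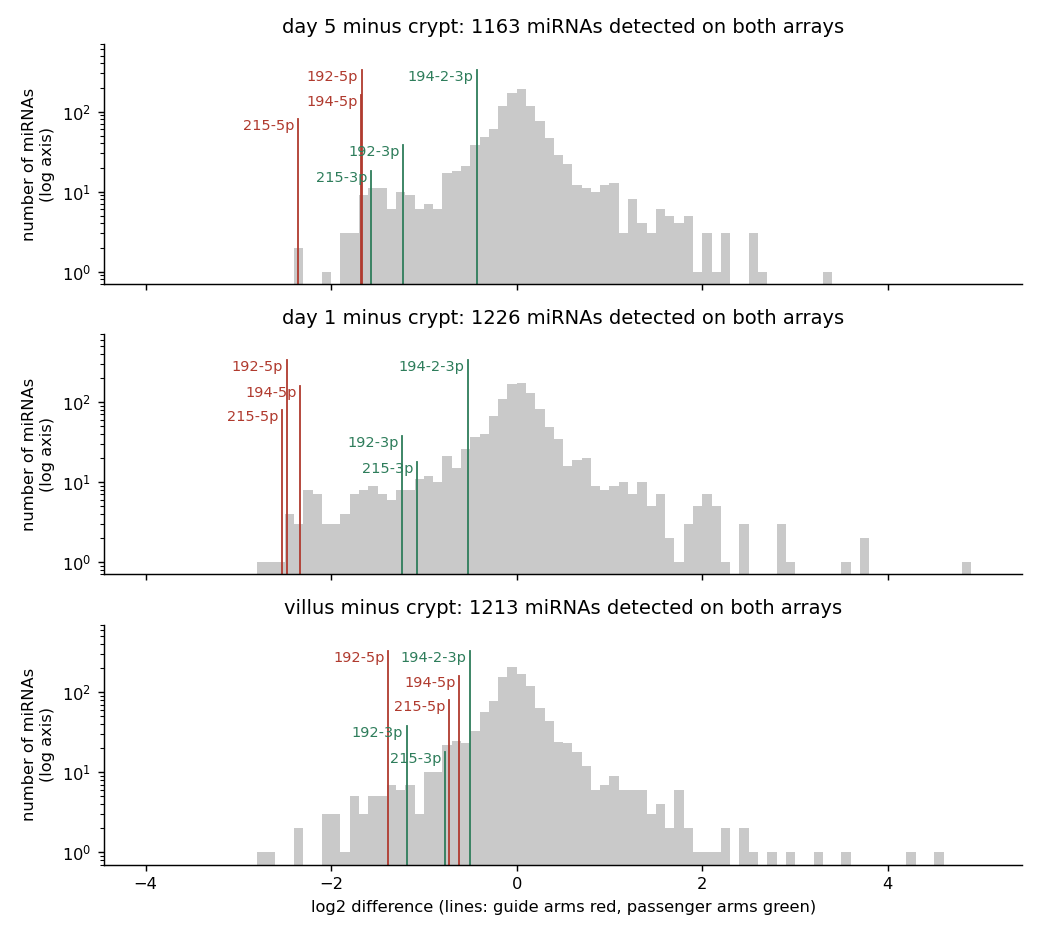
Histogram of log2 differences for all miRNAs detected on both arrays (log axis for the number of miRNAs), for day 5, day 1 and villus minus crypt, with the 3 guide arms as red and the 3 passenger arms as green lines. The guides lie at -1.67 or below in both organoid panels, and all 6 members lie left of 0 in the 3 panels, though for villus all 6 lie right of 0 with scaling to the median.

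Villus against crypt sets the compartment of differentiated epithelium in the animal against that of proliferating epithelium. The villus array also carried miRNAs of other cell types. The summed deposited value of 8 mesenchymal and muscle probes was 10835 in villus and 360.8 in crypt. Their part in the differences of the 6 members was not tested. As reported, the miR-192 arms had larger differences than the arms of the other hairpins. miR-192-5p was 2.61-fold lower in villus (-1.38) and its passenger miR-192-3p 2.27-fold lower (-1.19). The miR-215 arms had -0.73 (5p) and -0.78 (3p), and the miR-194 arms -0.62 (5p) and -0.50 (2-3p). Thus 2 of 6 members, both arms of miR-192, were at least 2-fold lower and none higher, where 3.33% of 1563 miRNAs were lower and 3.84% higher. The member median was -0.75 beside -0.03 over the 1213 miRNAs detected on both arrays.

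The direction in villus changed with the scaling. With Spike Control scaling miR-192-5p had -0.03, miR-194-5p 0.19 and miR-215-5p 0.42. Relative to the miR-200 family the same guides had 0.28, 0.50 and 0.73. With scaling to the median all 3 turned positive, at 0.95, 1.18 and 1.40. miR-192-3p stayed below 0 under 10 of 11 settings, the exception being scaling to the median with 0.077.

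RNA of other cell types moved with the villus array. The summed deposited value of 8 mesenchymal and muscle probes, which include miR-143-3p and miR-145a-5p, was 10835 in villus and 360.8 in crypt. As reported, 6 of the 8 were at least 2-fold higher in villus, where 3.84% of 1563 miRNAs were, and the list median was above 0 under all 11 settings. All 8 were detected in villus and 6 in crypt, where miR-1a-3p of muscle and miR-145a-3p were not detected. The 5 leukocyte probes summed to 730.0 in villus and 78.5 in crypt, with 3 higher and miR-155-5p not detected in crypt. For the 2 endothelial probes the sums were 301.3 in villus and 16.6 in crypt, and for the 2 red blood cell probes 965.5 in villus and 40.2 in crypt, with 1 of 2 higher in each list and miR-126a-5p and miR-144-3p not detected in crypt. These counts are as reported. With the background column subtracted no leukocyte or endothelial probe was 2-fold higher in villus, and the endothelial median was -0.28, while 1 red blood cell probe stayed higher. The 5 miR-200 guide arms, which mark epithelium, summed to 5124 in villus and 12359 in crypt in the deposited values. As intensity above the blank spots the order was the reverse, at 11314 in villus and 4222 in crypt. Their median difference was below 0 under 9 of 11 settings, -0.31 with Spike Controls and 0.62 with scaling to the median. The part of these cell types in the villus differences of the 6 members was not tested, and fewer epithelial cells cannot be told apart from less of a miRNA per cell. In organoids the mesenchymal sum of deposited values was 118.2 on day 5 and 148.4 on day 1, with 4 and 6 of the 8 probes detected. It was below the villus sum there and as intensity above the blank spots, whereas its order against crypt depended on the scale: above the blank spots it was 198.3 on day 1 and 125.1 in crypt.

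Against villus, organoids had lower miR-194-5p and miR-215-5p. miR-215-5p was 3.09-fold lower on day 5 (-1.63) and 3.48-fold lower on day 1 (-1.80). miR-194-5p was 2.08-fold lower on day 5 (-1.06) and 3.28-fold lower on day 1 (-1.71). miR-192-5p had -0.28 on day 5 and was 2.13-fold lower on day 1 (-1.09). All 3 guides stayed below 0 in both comparisons under all 11 settings, and miR-194-5p stayed at least 2-fold lower on day 5 under all 11. As reported, 2 passengers were closer to villus than the guides: miR-192-3p had -0.04 on day 5 and -0.05 on day 1, and miR-194-2-3p 0.08 and -0.02. miR-215-3p had -0.80 and -0.30, and on day 5 it was farther from villus than miR-192-5p. The added offset compresses differences of dim probes, and in the deposited values miR-215-3p had -1.41 and -0.49. So 2 of 6 members were at least 2-fold lower on day 5, where 4.61% of 1539 miRNAs were lower and 2.79% higher. On day 1 the count was 3 of 6, where 5.02% of 1632 miRNAs were lower and 3.37% higher. No member was higher by 2-fold in either.

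Between day 5 and day 1 no member passed 2-fold, where 0.892% of 1569 miRNAs were lower and 0.319% higher. miR-192-5p was 0.81 higher on day 5 and ranked 12 from the highest of 1346, a set with an SD of 0.28. miR-194-5p was 0.66 higher and ranked 29, whereas miR-215-5p had 0.17. The passengers had 0.10 (miR-194-2-3p), 0.01 (miR-192-3p) and -0.50 (miR-215-3p). The sign of every guide depended on the setting. miR-192-5p had -0.15 when arrays were scaled to their medians and -0.11 against the miR-200 family. miR-194-5p was below 0 under 3 of 11 settings, with -0.27 and -0.22 under the same scalings and -0.76 with the background column subtracted, and miR-215-5p was below 0 under 6 of 11. miR-215-3p stayed below 0 under all 11 settings, between -0.06 and -1.63.

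**Figure D3:**
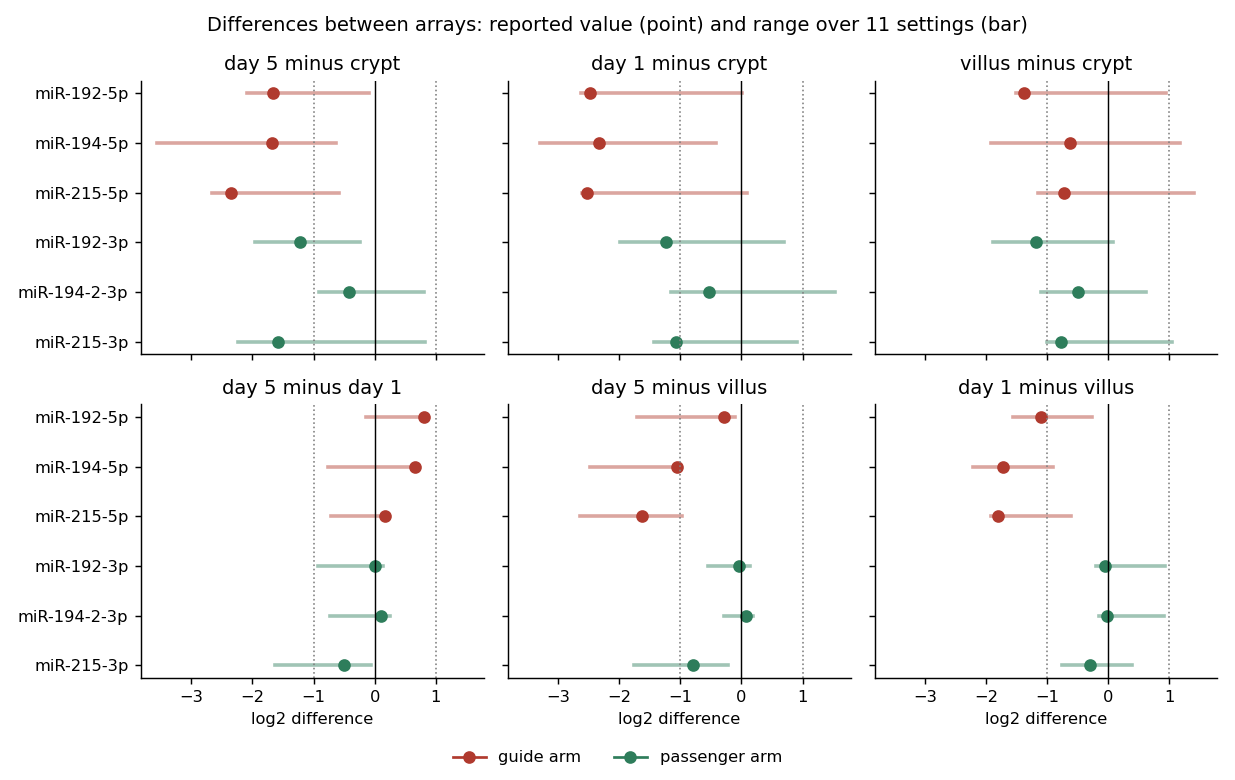
Log2 difference (horizontal axis) of each member in the 6 comparisons, with the reported value as a point, the range over 11 settings as a bar, guide arms in red and passenger arms in green, and dotted lines at 2-fold. The bars of the guides cross 0 for villus minus crypt and stay below it for both organoid days minus villus.

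Differences between 2 members in how much they changed do not depend on a single scale factor per array. They do depend on the background step and on scalings that are not 1 factor per array, such as the quantile normalization reported. Over the 10 other settings their sign turned for 80 of 480 values, beside 67 of 360 for single members. Over 4 spots the spot error has an SD of 0.251 on a difference between members, which does not cover dim probes. Between the guides with the shared seed, miR-192-5p of chromosome 19 was higher against miR-215-5p of chromosome 1 by 0.64 on day 5 compared with day 1, and by 0.57 to 0.66 over the 11 settings. The value was 1.34 in day 5 organoids compared with villus (0.86 to 1.38) and 0.71 in day 1 organoids compared with villus (0.28 to 0.71). On day 5 against crypt the value was 0.69 (0.48 to 0.98). In villus against crypt it was -0.65, below 0 under 10 of 11 settings, and on day 1 against crypt 0.05, which is within spot error and above 0 under 5 of 11.

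miR-194-5p, which both clusters make, also differed from miR-192-5p between organoids and villus: the value of miR-192-5p against it was 0.78 on day 5 and 0.62 on day 1, with the same sign under all 11 settings. For miR-215-5p against miR-194-5p, day 5 compared with day 1 gave -0.48, below 0 under 10 of 11 settings. In the day 5, day 1 and villus arrays against crypt, its sign against miR-194-5p changed with the setting: it was negative as reported and positive from blank-subtracted intensities, at 0.05, 0.51 and 0.23.

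Guide and passenger arms of 1 hairpin differed from crypt to unequal extents in day 1 organoids. On day 1 against crypt, the guide was lower relative to its passenger for all 3 pairs under all 11 settings, with -1.24 for miR-192-5p against miR-192-3p, -1.81 for miR-194-5p against miR-194-2-3p and -1.45 for miR-215-5p against miR-215-3p. From blank-subtracted intensities these were -0.68, -1.95 and -0.82. On day 5 against crypt, the miR-194 pair kept this order with -1.25, under all 11 settings, while the miR-192 pair had -0.45 and the miR-215 pair -0.78 as reported but 0.15 and 0.13 from blank-subtracted intensities. On day 5 compared with day 1 the guides were higher against their passengers by 0.80 (miR-192), 0.56 (miR-194) and 0.67 (miR-215), with the same sign under 11, 8 and 10 of the settings. Against villus, the guide was lower relative to its passenger in both organoid arrays for all 3 pairs under all 11 settings, by -1.14 on day 5 and -1.69 on day 1 for miR-194, -0.25 and -1.04 for miR-192, and -0.83 and -1.50 for miR-215. The day 5 value of the miR-215 pair was -0.08 from blank-subtracted intensities. In villus against crypt, the 3 pairs had -0.20 (miR-192), -0.12 (miR-194) and 0.04 (miR-215), though the miR-192 pair had 0.52 from blank-subtracted intensities. The 0.251 of spot error comes from bright spots, so the error of pairs that include a dim passenger is not known. The miR-194 pair is a comparison of a sum over 2 genes with the passenger of 1, and that passenger lay 21.3 above the blank spots in crypt, whose SD was 1.02.

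Among the passengers, miR-192-3p was lower against miR-194-2-3p of the same cluster when compared with crypt, by -0.80 on day 5, -0.71 on day 1 and -0.68 in villus, under all 11 settings each. The weakest values over the settings were -0.46, -0.24 and -0.19 in the same order, with those of day 1 and villus within the 0.251 of spot error. Both probes lay close to the detection limit, so the error of these values is not known.

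**Figure D4:**
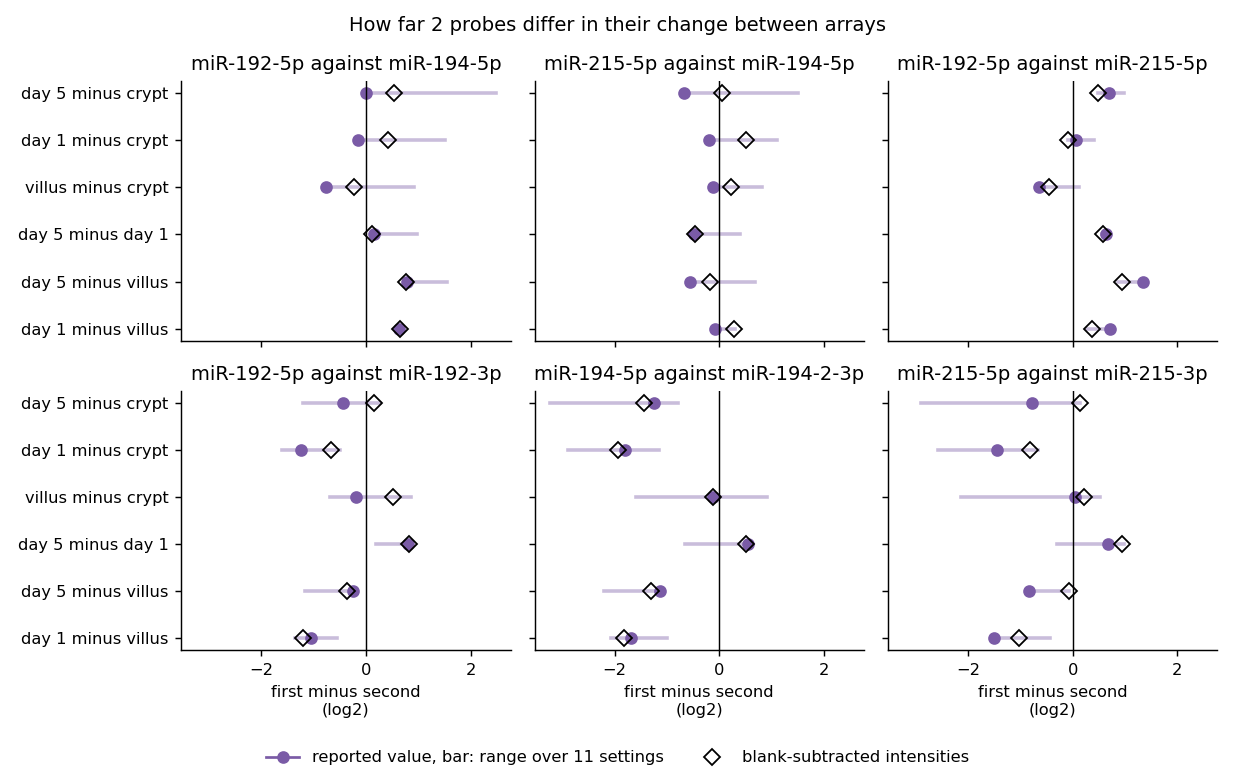
Difference between 2 probes in their log2 change (first minus second, horizontal axis) for the 6 comparisons, with the reported value as a filled point, the range over 11 settings as a bar and the value from blank-subtracted intensities as an open diamond. miR-192-5p against miR-215-5p lies right of 0 for day 5 minus day 1 and for both organoid days minus villus, and miR-194-5p against miR-194-2-3p lies left of 0 for both organoid days minus crypt.

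The cluster partners were not each other's nearest match over the 4 arrays. Likeness was the root mean square difference between mean-centred levels, over 1138 other probes detected on all arrays, and describes 4 points of the reported normalization only. Nearest to miR-192-5p were miR-19b-3p of the miR-17 cluster (0.09) and 4 miRNAs of the epithelial miR-200 family, miR-429-3p (0.11), miR-200a-3p (0.12), miR-200b-3p (0.13) and miR-141-3p (0.20). Nearest to miR-194-5p were let-7f-5p (0.06), miR-16-5p (0.08), miR-29b-3p (0.08), let-7a-5p (0.08) and miR-30c-5p (0.10). miR-215-5p had looser matches, with miR-30b-5p (0.18), miR-26a-5p (0.19), let-7f-5p (0.22), then let-7a-5p (0.23), and last miR-26b-5p (0.25). With the members included, miR-215-5p ranked 18 in likeness to miR-194-5p (0.26), while miR-194-5p ranked 25 (0.32) and miR-215-5p 59 (0.48) in likeness to miR-192-5p. Such ranks depend on the side they are taken from. The 0.26 between miR-215-5p and miR-194-5p lay just above the 0.25 of miR-26b-5p, the last match listed for miR-215-5p.

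**Figure D5:**
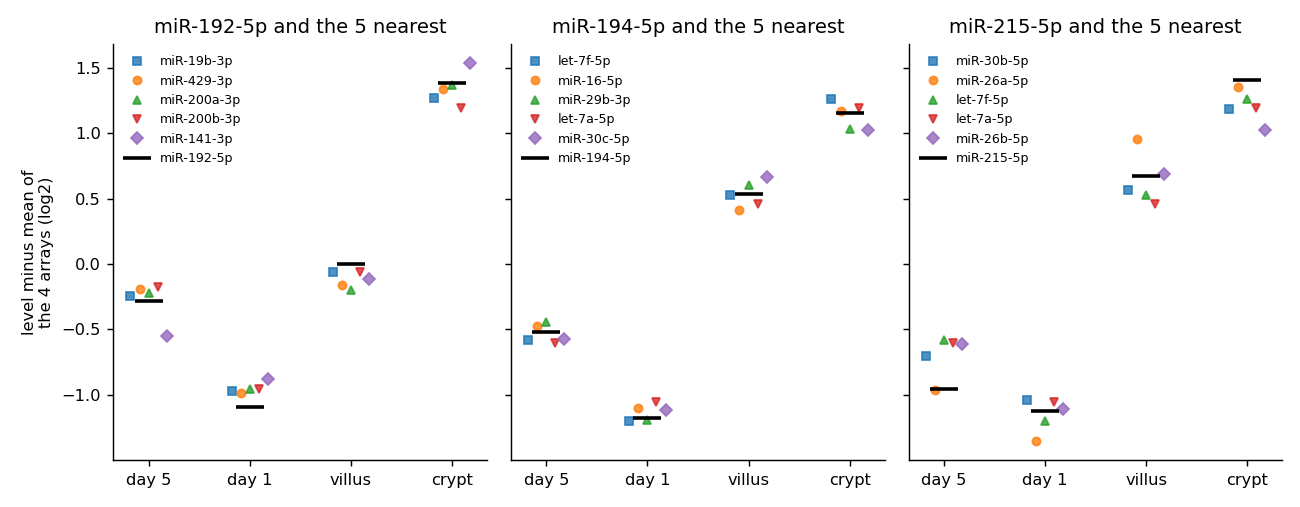
Level minus the mean of the 4 arrays (log2, vertical axis) of each guide arm (black bar) and of the 5 probes nearest to it (coloured symbols) on the day 5, day 1, villus and crypt arrays. In villus, miR-192-5p and its 5 matches lie near 0, whereas miR-194-5p, miR-215-5p and their matches lie between 0.41 and 0.96.

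As reported, other miRNAs linked to intestinal epithelium had the same direction against crypt as the members. Of 10 such probes, among them the 5 miR-200 guide arms, miR-26a-5p and miR-375-3p of endocrine cells, all 10 were at least 2-fold lower than in crypt on day 5 (median -1.56) and on day 1 (median -2.14). Over all miRNAs, 5.12% of 1465 were lower on day 5 and 6.19% of 1599 on day 1. With scaling to the median, 2 of the 10 were lower on day 5 and none on day 1, and with Spike Controls 2 on day 5 and 6 on day 1. With the miR-200 family none was lower on either day and 2 were higher on day 1. With the background column subtracted 6 were lower on each day, with 2 higher on day 5 and 1 on day 1. In villus 6 of the 10 were lower than in crypt (median -1.22), where 3.33% of 1563 miRNAs were. With scaling to the median none was lower in villus, 3 were higher and the median was 0.76. miR-26a-5p had -2.32 on day 5 and -2.71 on day 1. Between day 5 and day 1 none of the 10 passed 2-fold as reported, where 0.892% of 1569 miRNAs were lower and 0.319% higher. Of 2 other miRNAs linked to HNF factors, miR-802-5p was 2.07-fold lower on day 5 and 2.61-fold lower on day 1 than in crypt. It was no longer 2-fold lower on day 5 under 6 settings (the median, 75th percentile, Spike Control and miR-200 scalings, cyclic loess and the background column), nor on day 1 under the same settings without cyclic loess. miR-122-5p, the liver miRNA, was detected on the day 1 and crypt arrays and differed by -0.09. Of 6 other probes linked to p53, miR-107-3p alone was at least 2-fold lower than in crypt as reported, at -1.19 on day 5 and -1.77 on day 1. With the median, 75th percentile, Spike Control or miR-200 scaling or the background column subtracted, no probe of this list was 2-fold lower on either day. With the miR-200 family 4 were higher on day 5, and with the blank mean subtracted 4 were lower on day 1. miR-34a-5p, the best known miRNA target of p53, had -0.37 on day 5 and -0.72 on day 1.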

How the data were processed

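Total RNA of 4 mouse samples was labelled with Cy5 using the miRCURY LNA kit and measured on 1-colour miRNA arrays, per the labels' protocols. The deposited scanner tables hold spot medians, a linear intensity for which scans at several gains were joined by straight lines, per the file headers. The sources used here do not give scanner or array maker. The deposited table of processed values holds intensities whose median is 25 on each array, with direction and linear scale as in the scanner tables.

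Spot intensities were corrected with normexp (offset 50) and quantile normalized over 1897 miRNA probes (limma 3.58.1, R 4.3.3), leaving out 3 probes with a quality mark. The column named as background, whose median was 40.6% to 56.4% of spots above 1000, was not subtracted, except as an alternative. A probe was detected above the blank spots' mean plus 2 SD, computed after trimming 5% at each end, a limit of 70.5 on the day 5, 82.2 on the day 1, 107.8 on the villus and 69.4 on the crypt array. Where 1 array of a pair detected a probe, the difference is a bound. Arrays have 1 spot per miRNA, so the number of arrays limits the precision. The steps were tested on simulated data.

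The members and lists were chosen with earlier results of these data known. Named besides the members are, for each guide arm, the 5 probes nearest in pattern, and listed miRNAs past 2-fold; miR-122-5p, miR-34a-5p and the markers given as not detected fall outside this rule and were chosen after their values were seen. A list named miR-199a-3p, whose probe also carries miR-199b-3p, and was not counted. The 10 alternatives changed the scaling, background step, offset or detection limit.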

Additional observations from a re-analysis of the deposited data

How the results depend on the processing

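No paired analysis was possible because each group has 1 array, and no replicate could be left out. The median log2 difference of all miRNAs shifted with the scaling: for day 5, day 1 and villus minus crypt it was 0.94, 1.46 and 1.23 with Spike Controls, 1.55, 2.59 and 1.54 with the miR-200 family, 0.11, 0.44 and 0.27 in the deposited values, 0.08, 0.20 and 0.33 with scaling to the median, and -0.14, -0.33 and -0.29 with the 75th percentile. For day 5 minus day 1 it was -0.48, -0.99, -0.28, -0.11 and 0.20, for day 5 minus villus -0.21, 0.09, -0.09, -0.10 and 0.29, and for day 1 minus villus 0.29, 1.11, 0.23, 0.04 and 0.14 in the same order. Counts of members at least 2-fold lower on day 5 than in crypt (5 as reported) were 2 with scaling to the median, 3 each with the 75th percentile and Spike Controls, 0 with the miR-200 family and 3 with the background column subtracted. On day 1 against crypt (5) they were 1, 3 and 3, 0 and 3 in the same order, and the miR-200 family gave 1 member higher, miR-194-2-3p at 1.53. For villus against crypt (2) they were 0 under each of 4 scalings (median, 75th percentile, Spike Controls, miR-200 family), 4 with the blank mean subtracted and 1 in the deposited values. There 2 members were higher with the median and 1 with the background column. For day 5 against day 1 (0) the count was 1 with the median, Spike Controls and the miR-200 family, which is miR-215-3p. For day 5 against villus (2) it was 4 under scaling to either percentile (median or 75th) and 1 with the background column, and for day 1 against villus (3) it was 0 with the miR-200 family and with the background column. The other 93 counts were within 1.5 times the reported one.

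The sign turned for 67 values of single members, of which 15 were past 2-fold before or after the turn and are given here. On day 1 against crypt with the miR-200 family, miR-192-5p had 0.010, miR-192-3p 0.69, miR-194-2-3p 1.53, miR-215-5p 0.10 and miR-215-3p 0.91. In the same comparison miR-215-3p also had 0.13 with the median and 0.88 with the background column. On day 5 against crypt miR-215-3p had 0.82 with the background column. In villus against crypt miR-192-5p had 0.95 (median), 0.33 (75th percentile) and 0.28 (miR-200 family). With the median, miR-192-3p had 0.077, miR-194-5p 1.18 and miR-215-5p 1.40, and with the background column miR-215-3p had 1.04. Differences between members turned 80 times, 17 of them with that column, and 5 were past 2-fold before or after, all with that column: miR-215-5p against miR-194-5p to 1.50 on day 5 and 1.10 on day 1, miR-192-5p against miR-194-5p to 1.50 on day 1 and miR-192-3p against miR-215-3p to -1.63 on day 5, all minus crypt, and miR-215-5p against miR-215-3p to -2.14 in villus minus crypt. The cause was not tested.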

Other observations

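The array also carries the passenger arm of the first miR-194 gene, miR-194-1-3p, which was not among the 6 probes and is given here after its values were seen. Its normalized level was 6.77 on day 5, 6.74 on day 1, 6.89 in villus and 7.50 in crypt. Against crypt it had -0.73 on day 5, -0.76 on day 1 and -0.62 in villus, and none of these passed 2-fold. The passenger of the second gene, miR-194-2-3p, had -0.42, -0.52 and -0.50 in the same comparisons. As normalized, both were highest in crypt. With Spike Control scaling miR-194-1-3p had -0.19 on day 5, 0.20 on day 1 and 0.30 in villus, and miR-194-2-3p 0.19, 0.40 and 0.32, so this order depends on the setting. The 2 passengers are identical at 18 of 22 positions, so how far their probes read each other's target was not tested. The seed of miR-194-2-3p is shared by miR-6926-5p and miR-7055-5p, and that of miR-194-1-3p by no other name in the RefSeq table.

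The share of the spot taken by the column named as background differed between arrays for the 3 guides. For miR-192-5p it was 50.3% on day 5, 14.0% on day 1, 56.6% in villus and 65.6% in crypt. For miR-194-5p it was 77.8% on day 5, 49.1% on day 1, 75.4% in villus and 39.8% in crypt, and for miR-215-5p 56.7%, 34.1%, 68.5% and 55.8% in the same order. For miR-215-3p it exceeded the spot in crypt, at 102.5%.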
